A study of Oryza sativa with 6 samples.

Results

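Unannotated transcribed loci are the 3798 rows of the deposited expression table that the authors named Oryza_sativa_newGene_ followed by a number. They were selected by that name alone, out of 39477 loci, of which the other 35679 carry an identifier of the rice annotation. Levels were measured by RNA sequencing in mature rice leaves collected 60 days after germination in a greenhouse. The groups were 3 libraries of SRL1 knockout mutants (srl1-KO) and 3 libraries of a control without the knockout (non-KO). The knocked-out gene, SEMI-ROLLED LEAF1, is known from rice mutants whose leaf blades roll. The labels give no allele, guide, cultivar or number of independent lines, and each leaf sample is described as coming from 1 plant without saying which, so the p-values measure the spread between these libraries, which may be technical.

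Gene annotations are built from known transcripts, homology and predictions, and transcript assembly from RNA reads commonly finds transcribed regions that they lack. In plants such regions are known to include missed protein-coding genes, long non-coding RNAs, transcripts of transposable elements and detached pieces of neighbouring genes. The file gives no position, length, sequence or product for these loci, so which of these kinds each one belongs to is not given here and no sequence is shown. The library kit named in the labels does not mark strand, so reads from a locus and from an overlapping antisense gene cannot be told apart.

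Leaf identity was clear in every library. The 7 photosynthetic markers, which include small subunits of Rubisco, lay between 26.4 and 8867 FPKM (fragments scaled by transcript length and by the mapped fragments of the library) and had sums of 10680 to 13270 FPKM (srl1-KO) and 12890 to 17300 FPKM (non-KO). Of the seed storage genes, GluB1 was listed at 0 throughout and GluA1 stayed at 0.799 FPKM or less, and the meristem gene OSH1 did not exceed 0.0171 FPKM. PCNA, a replication gene that marks dividing cells, was at 8.01 to 12.4 FPKM in every library. The 3 secondary-wall cellulose synthases had sums of 2.82 to 8.07 FPKM (srl1-KO) and 2.05 to 18.4 FPKM (non-KO), highest in replicate 3 of each genotype. Of the photosynthetic markers, PSBS1 and the Rubisco small subunit Os12g0291100 were lower in srl1-KO without overlap (limma adjusted p = 0.0115 and 0.0427). Their adjusted p was under 0.05 in 14 and 7 of 16 other settings of the fit. The other photosynthetic markers overlapped between genotypes. The part of all these markers in the differences described here was not tested. SRL1 itself (Os07g0102300) was at 1.62, 2.22 and 1.96 FPKM in srl1-KO and 2.50, 2.70 and 3.30 FPKM in non-KO (limma adjusted p = 0.107). Summed FPKM ran from 598611 to 628270 per library, and the absolute depth is unknown.

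Most unannotated loci were barely expressed. In every library 961 of the 3798 (25.3%) were listed at 0, a further 2233 were above 0 somewhere but had a mean under 1 FPKM over the 6 libraries, and 604 (15.9%) reached a mean of 1 FPKM. Of these, 514 lay between 1 and 10 FPKM, 87 between 10 and 100 FPKM, and 3 above 100 FPKM. The median of the mean level was 0.0978 FPKM over all unannotated loci and 1.44 FPKM over all annotated loci. FPKM is scaled by length, and the lengths of these loci are not given, so what a single fragment is worth may differ between both kinds of locus.

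The lower level was seen in each library. In srl1-KO replicates 1, 2 and 3, levels of at least 1 FPKM were reached by 16.0%, 16.8% and 17.3% of unannotated loci, and in the non-KO replicates by 15.2%, 15.4% and 13.4%. The same share of annotated loci ran from 51.2% to 52.4%. All 6 libraries therefore showed a lower share for unannotated loci, with a mean difference of -36.3 percentage points. A two-sided exact permutation test within libraries gave p = 0.031, the smallest that 6 libraries allow. The share above 0 was 54.9% ± 1.09 for unannotated and 75.6% ± 0.451 for annotated loci (SD over 6 libraries), a difference of -20.7 points in 6 of 6 libraries (exact permutation p = 0.031). The replicates behind these tests are libraries, not loci. The same loci were compared in every library and the gaps far exceed the spread over libraries. Both p-values therefore say only that the direction held in each library.

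**Figure D1:**
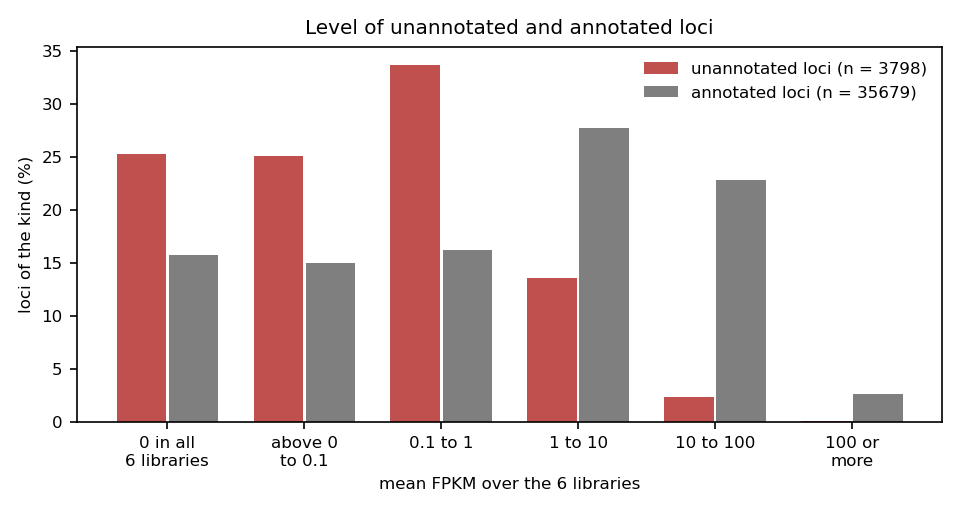
Share of unannotated (red, n = 3798) and annotated (grey, n = 35679) loci, in percent of each kind, by mean FPKM over the 6 libraries. The 3 lowest classes hold 25.3%, 25.1% and 33.7% of unannotated loci, while 27.7% of annotated loci lie between 1 and 10 FPKM and 22.8% between 10 and 100 FPKM.

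Detection was also patchier among unannotated loci, in a comparison not matched on level. The part of their lower level in this was not tested. Only 1430 of them (37.7%) were above 0 in all 6 libraries, against 24010 annotated loci (67.3%). A further 426 (11.2%) were above 0 in a single library, against 4.27% of annotated loci. Those 426 were spread over the libraries, with 78, 70 and 80 in srl1-KO replicates 1, 2 and 3 and 82, 56 and 60 in non-KO replicates 1, 2 and 3. A value of exactly 0 is not proof of absence in this file, where depth is unknown. Of the annotated loci, 20 with a mean of 10 FPKM or more were also listed at 0 in some library. Whether they were absent there was not tested.

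Slightly more loci of both kinds were detected in srl1-KO than in non-KO. The number above 0 was 2134, 2112 and 2119 in srl1-KO and 2042, 2049 and 2052 in non-KO, and the genotypes did not overlap (exact permutation test, two-sided, p = 0.1, the smallest that 3 against 3 allow). The number at 1 FPKM or more was 607, 638 and 658 in srl1-KO and 579, 586 and 510 in non-KO, again without overlap (exact permutation p = 0.1). In bulk tissue, fewer cells that express a locus and less RNA per cell cannot be told apart. The depth of the libraries is unknown, and its part in the number above 0 was not tested. The number of annotated loci above 0 did not overlap either, at 27199, 27079 and 26991 in srl1-KO and 26854, 26883 and 26760 in non-KO. The difference at 1 FPKM depended on scaling. With trimmed-mean (TMM) factors, which set the bulk of loci equal between libraries, the means became 610 ± 24.3 and 580 ± 44.6 (SD, n = 3 each), and the genotypes overlapped (exact permutation p = 0.6). Annotated loci at this level numbered 18672 to 18709 (srl1-KO) and 18275 to 18474 (non-KO).

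Unannotated loci took 1.25%, 0.751% and 0.724% of the summed FPKM in srl1-KO, in replicate order, while the non-KO shares were 0.781%, 0.704% and 0.722%. The genotypes overlapped (exact permutation p = 0.5), and srl1-KO replicate 1 stood alone at the top. Without that library the means were 0.738% and 0.736%. The high value came from a few loci, since the 10 most abundant made up 49.2% of the unannotated total in srl1-KO replicate 1 and 16.1% to 28.7% in the other libraries.

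Between genotypes, 61 unannotated loci rose and 36 fell in srl1-KO among the 604 tested, which are those whose 6-library mean reached 1 FPKM. The test was limma on log2(FPKM + 1) fitted to all 19556 loci past that filter, and a locus was called where its Benjamini-Hochberg adjusted p, taken over all of them, was under 0.05. Over all tested loci 27.2% were called, 15.3% as rises and 11.9% as falls. The unannotated loci were called at 16.1%, so they did not reach the background share. Their median log2 change (srl1-KO minus non-KO) was 0.12, beside 0.11 for all tested loci.

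The balance of rises and falls depended on scaling, for these loci as for all. With TMM factors, which lowered the median log2 change of all loci by 0.128, 38 unannotated loci rose and 50 fell, against a background of 9.46% rises and 15.1% falls. Of the 97 calls made with the values as deposited, 74 were also past the threshold with TMM factors, 38 of the rises and all 36 falls. With 1 library left out the counts were 33 rises and 28 falls when srl1-KO replicate 1 was removed, 20 and 24 for srl1-KO replicate 2, and 34 and 24 for non-KO replicate 1. Over all tested loci the counts fell as well, from 2995 rises and 2326 falls to 1711 and 1858, 1324 and 1635, and 1737 and 1817. None of the 97 changed direction in any of the 16 other settings of the fit that tested it. The genotypes did not overlap at any of the 97, so only a change of scaling could have turned a direction.

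The filter itself shaped these counts. Both genotype means reached 1 FPKM at 470 of the 604 loci, of which 30 rose and 22 fell (11.1% called). The other loci passed through 1 genotype only, 92 through srl1-KO with 31 rises and 42 through non-KO with 14 falls, and these had to differ in that direction. Annotated loci with both means at 1 FPKM or more were called at 26.3%. The genotypes did not overlap at 211 of the 604 (34.9%), against a background of 47.1%.

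**Figure D2:**
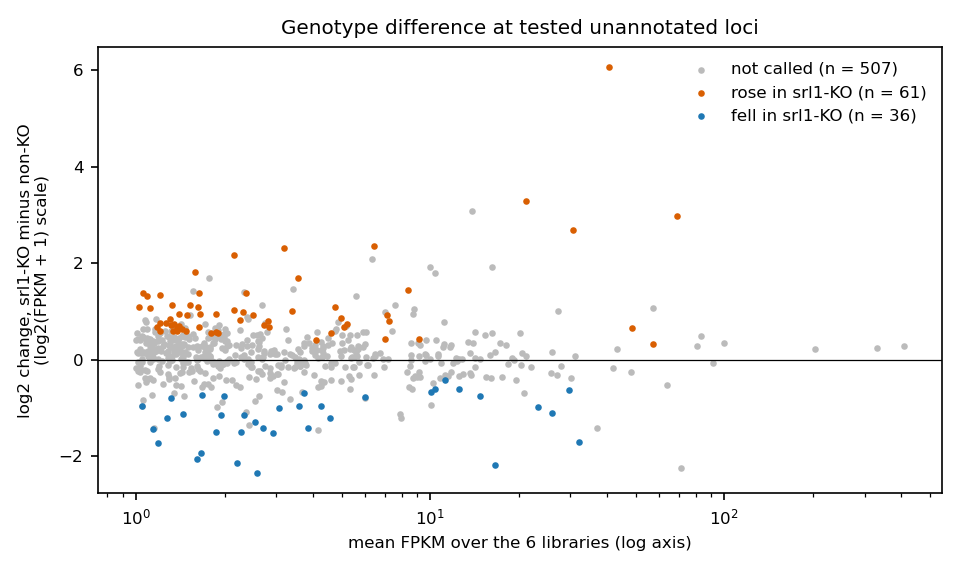
Each point is a tested unannotated locus, placed by its mean FPKM over the 6 libraries (log axis) and its difference between genotype means of log2(FPKM + 1), positive where srl1-KO was higher. The 61 loci that rose (orange) and 36 that fell (blue) lie across the levels of the tested loci, 71.9% of which are under 5 FPKM, and 1 rise, at 6.06, stands far above the rest.

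Calls lay at about the levels of the tested loci. A mean under 5 FPKM was found for 72 of the 97 called loci (74.2%), 47 rises and 25 falls, and for 434 of the 604 tested (71.9%). The median log2 change was 0.87 among rises and -1.14 among falls, beside 0.72 and -1.17 for annotated loci. As ratios of mean FPKM, which do not shrink low loci, the median rise was 2.53-fold and the median fall 3.34-fold, the latter over the 35 loci with a value above 0 in both genotypes. At least a 2-fold ratio held for 47 of the 61 rises and 28 of the 36 falls, with the locus listed at 0 in srl1-KO counted among the falls. For annotated loci the median ratios were 1.82 and 2.56, and 1178 of 2934 rises and 1504 of 2290 falls reached 2-fold. Both kinds were not matched on level. The median of the mean level was 1.90 FPKM for unannotated and 8.92 FPKM for annotated rises, and 2.81 and 15.3 FPKM for falls. The part of level and spread in these ratios was not tested. Of the unannotated calls, 31 rises and 14 falls had passed the filter through the higher genotype alone, which in part fixed their ratio.

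Set side by side at like levels, the share of calls differed between both kinds of locus except at the lowest. Between 1 and 2 FPKM, 16.6% of 259 unannotated and 16.9% of 2249 annotated loci were called. Between 5 and 10 FPKM the shares were 11.2% of 80 and 28.1% of 3817, and between 10 and 50 FPKM they were 17.9% of 78 and 30.9% of 6986. The spread within genotypes differed too. The median residual SD of the fit on the log2 scale was 0.252 and 0.249 in the lowest class, 0.258 and 0.192 between 5 and 10 FPKM, and 1.27 and 0.197 at 50 FPKM or more. That top class holds only 12 unannotated loci, of which 8 had a residual SD over 1, against 2.21% of 2080 annotated loci. Among those 8 are the 5 loci, described below, that varied together from library to library. These are descriptions of the loci, with no test, and their part in each other was not tested.

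**Figure D3:**
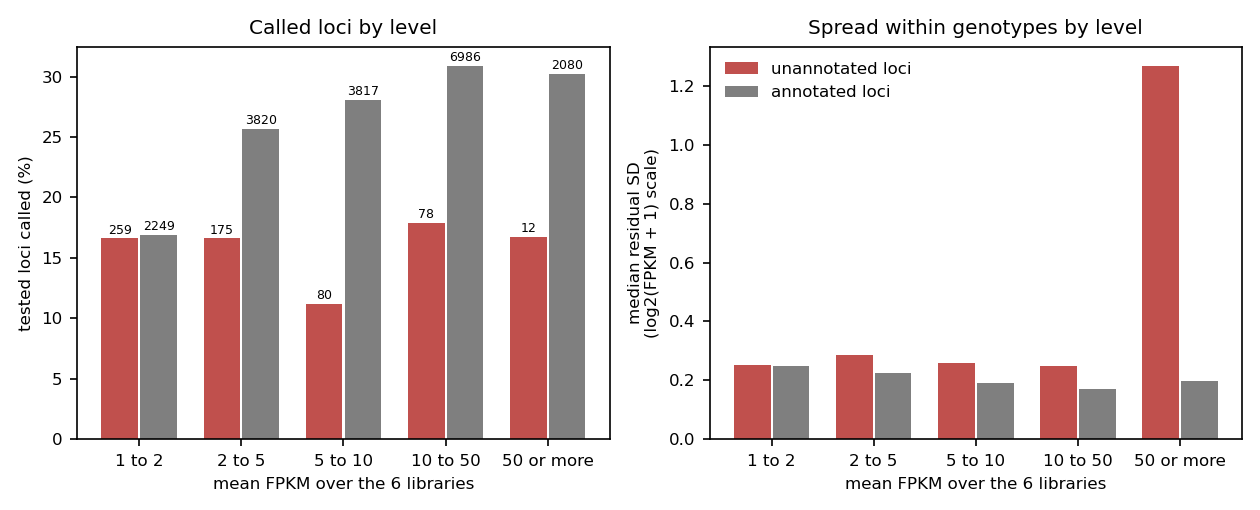
Left, percent of tested loci called between genotypes, and right, median residual SD on the log2(FPKM + 1) scale, by mean FPKM for unannotated (red) and annotated (grey) loci, with the number tested above each bar on the left. Called shares are alike between 1 and 2 FPKM (16.6% and 16.9%) and lower for unannotated loci in the higher classes, and the spread of the 12 unannotated loci at 50 FPKM or more reaches 1.27. These 12 include 5 loci that varied together.

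Libraries of a genotype ranked the tested unannotated loci less alike than the annotated ones. Across the 604 loci, which are not independent replicates, Spearman correlations ran from 0.740 to 0.820 within srl1-KO and from 0.802 to 0.831 within non-KO. Across tested annotated loci they ran from 0.938 to 0.965 and from 0.952 to 0.958. Between genotypes the ranges were 0.606 to 0.705 and 0.846 to 0.863. Both kinds were not matched on level, since the median of the mean level was 2.42 FPKM over tested unannotated and 9.40 FPKM over tested annotated loci. The part of level in these correlations was not tested. The first principal component of the unannotated loci held 45.7% of their variance and separated the genotypes, and the second held 20.8% and set srl1-KO replicate 1 against srl1-KO replicate 3. Annotated loci showed the same order of components, with 65.9% of variance on the first, which separated the genotypes, and 12.4% on the second, with the same 2 libraries at its ends.

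The largest rise was that of Oryza_sativa_newGene_8375, at 126, 60.8 and 55.7 FPKM in srl1-KO and 0.202, 0.242 and 0 FPKM in non-KO (log2 change 6.06 ± 0.31 SE; limma adjusted p = 0.000108). The next, at a pseudocount of 1, was Oryza_sativa_newGene_7370 at 61.0, 32.1 and 24.7 FPKM in srl1-KO against 1.55, 4.92 and 2.82 FPKM in non-KO. That locus was 12.7-fold higher in srl1-KO (log2 change 3.28 ± 0.41 SE; limma adjusted p = 0.00241). In both, srl1-KO replicate 1 was the highest library and the genotypes were far apart. Oryza_sativa_newGene_8375 had passed the filter through srl1-KO alone and so had to be higher there. At a pseudocount of 0.1 the log2 change of Oryza_sativa_newGene_8375 was 8.43 and remained the largest rise, and the next was Oryza_sativa_newGene_9454 at 4.46.

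Smaller rises were tighter. Oryza_sativa_newGene_1898 was at 10.9, 12.7 and 10.7 FPKM in srl1-KO and 1.58, 1.72 and 1.04 FPKM in non-KO, or 7.91-fold apart (limma log2 change 2.35 ± 0.15 SE; adjusted p = 0.000223). Oryza_sativa_newGene_3617 was at 12.6, 13.5 and 11.9 FPKM against 2.53, 4.48 and 5.55 FPKM, a 3.03-fold difference (limma adjusted p = 0.00586). Oryza_sativa_newGene_7742 was at 4.05, 8.31 and 5.70 FPKM against 1.36, 1.00 and 0.963 FPKM, a 5.43-fold difference (limma adjusted p = 0.0037). Each of these 3 kept its call in every setting that tested it, and in each the lowest srl1-KO library was above the highest non-KO library by more than the range within non-KO.

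A further pair of rises was listed at or close to 0 in non-KO. Both loci had passed the filter through srl1-KO alone and so had to be higher there. Oryza_sativa_newGene_9454 was at 6.62, 3.45 and 2.58 FPKM in srl1-KO and 0, 0.160 and 0.128 FPKM in non-KO (log2 change 2.18 ± 0.29 SE; limma adjusted p = 0.00304). Oryza_sativa_newGene_112 was at 5.05, 3.31 and 0.983 FPKM and at 0, 0.0626 and 0.106 FPKM (log2 change 1.82 ± 0.40 SE; limma adjusted p = 0.0181). The call of Oryza_sativa_newGene_112 was lost when srl1-KO replicate 2 was removed (limma adjusted p = 0.0685) or non-KO replicate 1 (0.0591). These were the only unannotated rises with a non-KO mean under 0.1 FPKM.

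The remaining 3 of the 10 largest rises varied more in non-KO. Oryza_sativa_newGene_8031 was at 215, 92.5 and 52.2 FPKM in srl1-KO and 2.75, 35.4 and 15.0 FPKM in non-KO, so that its non-KO libraries alone spanned more than 10-fold. Its log2 change of 2.98 ± 0.88 (SE) had a limma adjusted p of 0.0472, which rose to between 0.051 and 0.121 in 11 of 16 other settings, the removal of any library but non-KO replicate 2 among them. Oryza_sativa_newGene_9033 was at 50.5, 56.9 and 43.9 FPKM in srl1-KO and 4.52, 25.1 and 2.53 FPKM in non-KO (log2 change 2.68 ± 0.69 SE; limma adjusted p = 0.0311). Its call was lost with no filter (adjusted p = 0.0611) and without any library but non-KO replicate 2 (adjusted p from 0.0614 to 0.0967). Oryza_sativa_newGene_9034 was at 6.01, 6.06 and 5.52 FPKM in srl1-KO and 0.00143, 1.53 and 0.0276 FPKM in non-KO (limma adjusted p = 0.00559), and kept its call in all 15 other settings that tested it. All 3 were highest, within non-KO, in replicate 2. Of them, Oryza_sativa_newGene_9034 had passed the filter through srl1-KO alone.

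**Figure D4:**
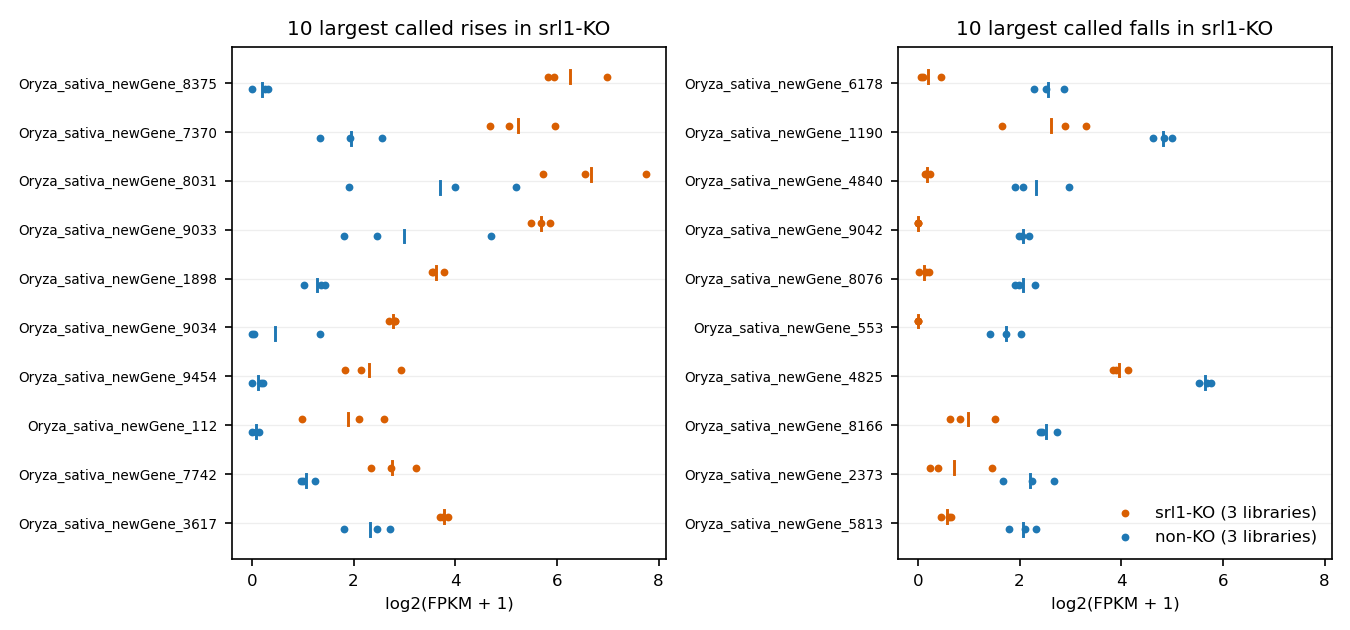
Levels on the log2(FPKM + 1) scale of the 10 largest called rises (left) and falls (right) among unannotated loci, 1 point per library and a bar at the mean of 3, with srl1-KO in orange and non-KO in blue. No locus shown overlaps between genotypes, Oryza_sativa_newGene_8375 has the widest gap, and the srl1-KO points of Oryza_sativa_newGene_553 and Oryza_sativa_newGene_9042 sit at or next to 0.

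Among the falls, several loci were listed at or near 0 in srl1-KO. Oryza_sativa_newGene_553 was listed at 0 in all 3 srl1-KO libraries and stood at 3.11, 2.31 and 1.68 FPKM in non-KO (log2 change -1.73 ± 0.20 SE; limma adjusted p = 0.00188). Oryza_sativa_newGene_9042 was at 0, 0 and 0.00646 FPKM in srl1-KO and 2.95, 3.15 and 3.56 FPKM in non-KO (log2 change -2.07 ± 0.15 SE; limma adjusted p = 0.000312). Oryza_sativa_newGene_1863 was at 0.0499, 0 and 0.0409 FPKM in srl1-KO and 1.495 to 1.79 FPKM in non-KO, but its mean of 0.844 FPKM left it untested. These 3 were the unannotated loci with at least 1 FPKM in every non-KO and under 0.1 FPKM in every srl1-KO library, against a background of 0.0633% of all loci, and made up 0.079% of the 3798. No unannotated locus showed the opposite pattern, for which the background was 0.0228%. With presence counted as any value above 0, 29 unannotated loci were present in all srl1-KO and listed at 0 in all non-KO libraries (background 0.469%) and 25 the other way round (background 0.357%). These were low, the highest value in any library being 1.85 and 3.11 FPKM.

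Further falls were low but above 0 in every srl1-KO library. Oryza_sativa_newGene_6178 was at 0.0694, 0.0455 and 0.372 FPKM in srl1-KO and 4.77, 6.29 and 3.88 FPKM in non-KO, a 30.7-fold difference with the most negative limma log2 change at a pseudocount of 1 (-2.35 ± 0.21 SE; adjusted p = 0.000648). At a pseudocount of 0.1 its log2 change was -4.46, and Oryza_sativa_newGene_9042 (-5.02) and Oryza_sativa_newGene_553 (-4.58) fell further, so the order of low loci depends on the pseudocount. Oryza_sativa_newGene_4840 was at 0.178, 0.106 and 0.114 FPKM against 6.85, 2.77 and 3.17 FPKM (limma adjusted p = 0.00328). Oryza_sativa_newGene_8076 was at 0.120, 0.158 and 0.0118 FPKM against 2.75, 2.96 and 3.97 FPKM (limma adjusted p = 0.000719). All of these stayed past the threshold in the other settings that tested them, and the srl1-KO libraries of each lay far below its lowest non-KO library. All of them, Oryza_sativa_newGene_9042 and Oryza_sativa_newGene_553 included, had passed the filter through non-KO alone and so had to be lower in srl1-KO.

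More abundant loci fell by smaller ratios. Oryza_sativa_newGene_4825 was at 13.9, 16.5 and 13.3 FPKM in srl1-KO and 44.9, 50.2 and 53.5 FPKM in non-KO, or 3.41-fold apart (limma log2 change -1.70 ± 0.12 SE; adjusted p = 0.00031). Oryza_sativa_newGene_1190 was at 8.90, 6.48 and 2.17 FPKM against 27.7, 23.8 and 30.8 FPKM, or 4.68-fold apart (limma log2 change -2.19 ± 0.40 SE; adjusted p = 0.00963). Both were called in all 16 other settings. Another 3 loci, at lower levels, completed the 10 largest falls. Of them, Oryza_sativa_newGene_5813 and Oryza_sativa_newGene_2373 had passed the filter through non-KO alone. Oryza_sativa_newGene_5813 (0.529, 0.370 and 0.572 against 2.49, 3.30 and 3.99 FPKM) and Oryza_sativa_newGene_8166 (0.546, 0.776 and 1.86 against 5.63, 4.27 and 4.41 FPKM) kept their calls in the other settings that tested them. Oryza_sativa_newGene_2373 (0.320, 0.184 and 1.76 against 3.77, 5.42 and 2.21 FPKM; limma adjusted p = 0.0331) lost its call in 6 of 15 other settings (adjusted p from 0.0636 to 0.104): with no filter, with the replicate numbers as a block, and without replicate 1 or 2 of either genotype.

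For the 5 largest rises and 5 largest falls, the annotated locus with the most alike levels was found by Euclidean distance over the 6 libraries on the log2(FPKM + 1) scale, among 18952 tested annotated loci. Oryza_sativa_newGene_8375 had by far the closest match, Os11g0690332 on chromosome 11, at a distance of 0.20, with the next locus at 2.56. The match stood at 125, 55.7 and 51.8 FPKM in srl1-KO and 0.212, 0.258 and 0.0775 FPKM in non-KO, and because shared reads of the pair could not be checked, the values of both are uncertain. For the other 9 the nearest distance ran from 0.40 to 1.88, and none was set so far apart from the next. Oryza_sativa_newGene_4840 was nearest to Os04g0483450 on chromosome 4 (distance 0.42), which was at 0.0344, 0 and 0 FPKM in srl1-KO and 5.43, 3.10 and 3.14 FPKM in non-KO. Oryza_sativa_newGene_9042 was nearest to Os10g0542750 on chromosome 10 (distance 0.41). What these annotated loci encode is not given in the file or in the reference table used here.

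The most abundant unannotated loci were not called. Oryza_sativa_newGene_5872 and Oryza_sativa_newGene_6151 varied little. The first stood at 218, 221 and 218 FPKM in srl1-KO and 186, 163 and 220 FPKM in non-KO, with a 95% interval of the log2 change from -0.10 to 0.54. The second stood at 92.0, 99.5 and 77.4 FPKM and at 85.8, 105 and 90.2 FPKM, with an interval from -0.39 to 0.26.

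By contrast, 5 abundant loci moved together from library to library and overlapped between genotypes. Oryza_sativa_newGene_7764, the most abundant of all, was at 1225, 235 and 121 FPKM in srl1-KO and 415, 169 and 280 FPKM in non-KO. Oryza_sativa_newGene_7763 was at 1032, 164 and 90.5 FPKM and at 352, 118 and 225 FPKM. Oryza_sativa_newGene_3205 was at 270, 67.6 and 40.7 FPKM and at 87.3, 47.5 and 85.8 FPKM. In each of them srl1-KO replicate 1 was the highest library and srl1-KO replicate 3 the lowest. Oryza_sativa_newGene_7017 ran from 28.5 to 262 FPKM and Oryza_sativa_newGene_3710 from 20.4 to 256 FPKM, with the same libraries at both ends.

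These 5 were found by their correlation with Oryza_sativa_newGene_7764 over the 6 libraries, a search chosen after the values were seen. Pearson's r on the log2 scale was 0.977 to 0.998 for the other 4. The same search (r over 0.97 and SD over 0.5, at a mean of 5 FPKM or more) covered 12883 annotated loci and found 0, the highest r among annotated loci with that SD being 0.958, at Os06g0569500. The 6 points share their libraries, and the loci were picked for their likeness, so no test is given. Srl1-KO replicate 1 was 4.99 to 8.11 times the mean of srl1-KO replicates 2 and 3 at these loci. None was called between genotypes, with limma adjusted p from 0.676 to 0.864, and their 95% intervals are wide (for Oryza_sativa_newGene_7764, -1.71 to 2.25). Srl1-KO replicate 1 also had the lowest summed FPKM, at 598611, and the lowest sum of photosynthetic markers, at 10680 FPKM. Their part in this pattern was not tested.

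These loci also decided the share of expression described above. They made up 40.7% of the unannotated total in srl1-KO replicate 1 and 6.67% to 20.5% in the other libraries. With them set aside, the remaining unannotated loci took 0.742%, 0.662% and 0.676% of summed FPKM in srl1-KO and 0.621%, 0.640% and 0.607% in non-KO, and the genotypes no longer overlapped (exact permutation test, two-sided, p = 0.1, the smallest that 3 against 3 allow).

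**Figure D5:**
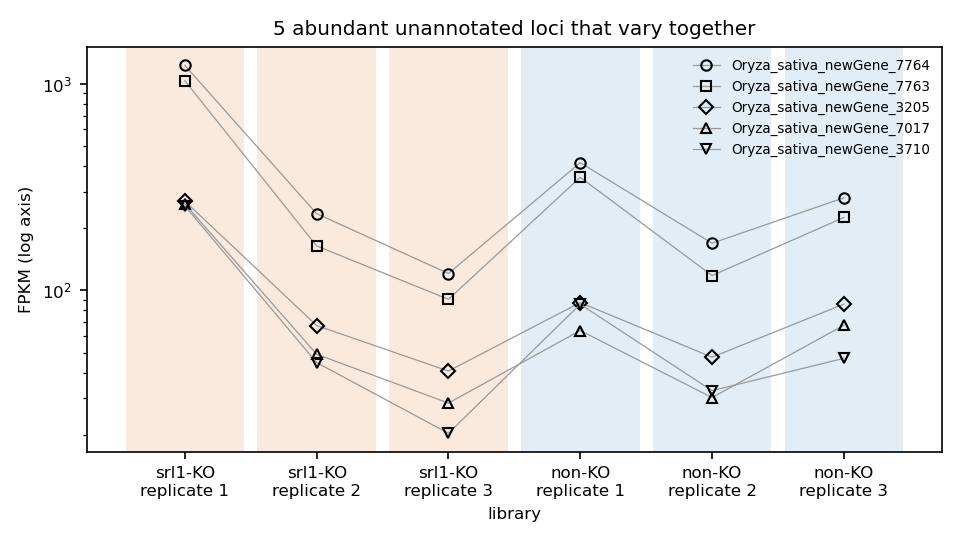
FPKM (log axis) of 5 abundant unannotated loci in each of the 6 libraries, with srl1-KO libraries shaded orange and non-KO libraries blue; thin lines join the values of 1 locus and carry no order. All 5 are highest in srl1-KO replicate 1, where Oryza_sativa_newGene_7764 reaches 1225 FPKM, and lowest in srl1-KO replicate 3.

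Other loci were high in 1 library and listed at or near 0 in another of the same genotype, where a value of 0 does not show absence. A value of 5 FPKM or more in 1 library and under 0.1 FPKM in another of the same genotype occurred at 11 of the 604 unannotated loci (1.82%) and at 113 of 18952 annotated loci (0.596%), a count made after the values were seen. This comparison was not matched on level, and the part of level in it was not tested. Oryza_sativa_newGene_9565, with the largest residual SD of all unannotated loci (2.45 on the log2 scale), was at 61.9 FPKM in srl1-KO replicate 2, at 0.524 FPKM in non-KO replicate 2 and listed at 0 in the other 4 libraries. Oryza_sativa_newGene_7445 was at 20.9 FPKM in srl1-KO replicate 1 and 11.5 FPKM in non-KO replicate 1 and listed at 0 elsewhere. Oryza_sativa_newGene_3432 was at 19.7 FPKM in srl1-KO replicate 1 and at 10.2 and 17.7 FPKM in non-KO replicates 1 and 2, with 0, 0 and 0.240 FPKM in the other 3. None of these 3 followed genotype (limma adjusted p from 0.425 to 0.909).

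At the other end, some unannotated loci varied little. Of the 507 that were not called, 63 had a 95% interval of the log2 change within 0.5 either way. Oryza_sativa_newGene_6298 was at 9.93, 9.81 and 10.2 FPKM in srl1-KO and 9.86, 10.6 and 9.39 FPKM in non-KO, with an interval from -0.23 to 0.24. Oryza_sativa_newGene_8406 was at 19.2, 20.3 and 19.0 FPKM and at 22.8, 20.8 and 20.2 FPKM, with an interval from -0.35 to 0.11. Oryza_sativa_newGene_6052 was at 41.5, 44.7 and 45.4 FPKM and at 52.4, 55.6 and 49.4 FPKM without overlap, and missed the threshold (limma adjusted p = 0.0981) except with TMM factors (adjusted p = 0.0274). At 69 of the 507 the interval was wider than 2, so a log2 change of more than 1 in at least 1 direction remains possible there.

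The names run from 1 to 9741, of which 3798 numbers (39.0%) are listed. The file does not say whether numbers follow position on the chromosomes. Among the 76 pairs of tested loci with consecutive numbers, the log2 changes correlated at 0.20, and the deviations from genotype means had a median correlation of 0.09 and exceeded 0.9 in 4 pairs. For 3356 pairs whose numbers differed by 21 to 100 the values were 0.00, 0.04 and 85 pairs. Of the 4 close pairs, 2 are described above, Oryza_sativa_newGene_7763 with Oryza_sativa_newGene_7764 and Oryza_sativa_newGene_9033 with Oryza_sativa_newGene_9034 (r = 0.97), and whether the members of such a pair are separate transcripts was not tested.

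Both loci were called in 5 of the 76 pairs with consecutive numbers, and 2 of these 5 moved the same way. Oryza_sativa_newGene_9033 and Oryza_sativa_newGene_9034 rose together. Oryza_sativa_newGene_6796 fell from 37.6, 32.3 and 38.2 FPKM in non-KO to 17.5 FPKM or less in srl1-KO (limma adjusted p = 0.00156), and Oryza_sativa_newGene_6795 fell with it at a lower level (log2 changes -1.12 and -0.80). In the other 3 pairs the directions were opposite. Oryza_sativa_newGene_5813 fell while Oryza_sativa_newGene_5814 rose, from 1.26, 1.61 and 2.92 FPKM in non-KO to 4.78, 6.35 and 3.48 FPKM in srl1-KO (log2 changes -1.50 and 1.01). Oryza_sativa_newGene_7004 rose and Oryza_sativa_newGene_7005 fell (0.63 and -0.996), and Oryza_sativa_newGene_7079 rose and Oryza_sativa_newGene_7080 fell (0.71 and -1.13). As a background, both loci were called in 3 of 236 pairs with numbers 2 to 5 apart, 16 of 710 at 6 to 20 and 81 of 3356 at 21 to 100. Of these, 3, 9 and 43 pairs moved the same way, and no test is given.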

How the data were processed

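The deposited table holds FPKM values that the authors computed for every locus in each single library. HISAT2, DESeq2 and the IRGSP-1.0 build appear in the submitters' processing notes, with neither version nor role. Not given in the sources used here are the FPKM tool, the annotation, any use of strand and how new loci were built. Libraries were made from poly(A) RNA, per the labels' protocols. Since FPKM carries no counts, depth is unknown, and neither counting intervals nor count models apply.

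Loci whose 6-library mean reached 1 FPKM were compared on log2(FPKM + 1) by limma 3.58.1 in R 4.3.3, two-sided, with eBayes fitting a trend of variance on mean. Adjustment by Benjamini-Hochberg covered all 19556 of them. The fit was tested on simulated data. Single values per library were compared by exact permutation tests (SciPy 1.17.1). Named loci were the 10 largest called rises and falls without overlap, the 5 most abundant, those present in 1 genotype only, the 3 steadiest above 5 FPKM and the 3 with the largest residual SD. The members, lists and tests were chosen with earlier results of these data known, and marker identifiers were written from general knowledge. Alternatives changed the pseudocount, filter, scaling, variance model, replicate block and libraries.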

Additional observations from a re-analysis of the deposited data

How the results depend on the processing

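Of 97 unannotated calls, 31 (15 rises and 16 falls) held with their direction in all settings except the filter at 5 FPKM, which tests fewer loci. A locus that fell under the filter in a setting, and so was not tested there, counted as not holding. An example is Oryza_sativa_newGene_553, called in all 13 other settings that tested it. The total moved to 191 with no filter (114 rises and 77 falls; 6.73% of 2837 tested, against 14.9% of all loci) and to 28 with a filter at 5 FPKM (16 and 12; 16.5% of 170, against 30.5%). With TMM factors there were 38 rises. Without 1 library the calls ran from 44 to 85, the rises from 20 to 47 and the falls from 24 to 38. With the replicate numbers as a block 59 were called (9.77%, against 18.7% of all loci), 32 rises and 27 falls. The labels do not say that numbers pair libraries, and deviations of same-numbered libraries over all tested loci correlated at -0.0537, 0.0451 and 0.0167. The other causes were not tested. SRL1, at a log2 change of -0.50 after quantile normalization, then had an adjusted p of 0.0488. The shares of unannotated minus annotated loci kept their size without 1 library (-36.5 to -35.9 and -20.8 to -20.5 points), where 5 libraries allow no p under 0.0625. Of the 20 named called loci 16 stayed past the threshold in every setting that tested them. Among the uncalled named loci, removal of 1 library could turn the sign of the log2 change at Oryza_sativa_newGene_7764 (-0.68 to 0.99), Oryza_sativa_newGene_7763 (-0.79 to 0.96), Oryza_sativa_newGene_3205 (-0.43 to 0.92), Oryza_sativa_newGene_3710 (-0.73 to 1.06), Oryza_sativa_newGene_7017 (-0.43 to 1.15), Oryza_sativa_newGene_7445 (-1.21 to 1.48), Oryza_sativa_newGene_6151 (-0.14 to 0.04) and Oryza_sativa_newGene_6298 (-0.03 to 0.05). Its sign also turned at Oryza_sativa_newGene_6151 with quantile normalization (0.08) and at Oryza_sativa_newGene_6298 with TMM factors (-0.13) and quantile normalization (-0.05). Setting aside the 5 loci that vary together was chosen after the data were seen and moved the difference in share from 0.173 to 0.0705 percentage points.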

Other observations

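A set of 3 unannotated loci that missed the threshold had nearly the same order of libraries, noticed after their values were seen. Oryza_sativa_newGene_1323 was at 58.4, 23.0 and 0.310 FPKM in the 3 srl1-KO replicates in turn, and at 0.0626, 0.550 and 0.866 FPKM in non-KO (limma adjusted p = 0.125). Oryza_sativa_newGene_6846 was at 39.5, 13.5 and 0.610 FPKM and at 0.691, 4.77 and 0.784 FPKM (limma adjusted p = 0.255). Oryza_sativa_newGene_947 was at 26.4, 9.37 and 0.133 FPKM and at 0.203, 1.48 and 0.386 FPKM (limma adjusted p = 0.194). In all 3, srl1-KO replicates 1 and 2 were far above srl1-KO replicate 3, which lay within the range of non-KO or below it. The log2 change of Oryza_sativa_newGene_1323, at 3.08 on the log2(FPKM + 1) scale, was larger than that of all but 2 of the unannotated loci that rose.

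Some loci were high in a single library only. Oryza_sativa_newGene_5984 was at 20.3 FPKM in srl1-KO replicate 3 and at 0.103 FPKM or less in the other 5, and Oryza_sativa_newGene_7426 was at 6.31 FPKM in non-KO replicate 3 and listed at 0 in the other 5. Oryza_sativa_newGene_8427 showed the reverse, at 9.32 to 10.9 FPKM in 4 libraries and listed at 0 in srl1-KO replicate 1 and non-KO replicate 3.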
